A study of Mus musculus with 21 samples.

Results

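Spiral ganglion neurons (SGNs) of the mature mouse cochlea, taken at P30, were compared with glial cells taken from the SGN area at P8. Every gene with a level over 1 CPM (counts scaled by the library total) in all 3 libraries of either group was described, which gave 13664 genes of the 52550 in the count table. Of these, 2912 passed this limit in the P30 SGNs alone, 1466 in the glia alone and 9286 in both groups, so a gene that passed in 1 group alone had to be at a low level in the other. The series holds RNA-Seq libraries of 7 groups of cochlear cells, with 3 libraries per group. The study asked which genes set SGNs apart from their neighbouring cells, and all mice were C57BL/6 per the labels. P30 SGNs carried ShhCre/+; Rosa26-CAG-loxp-stop-loxp-tdTomato/+ and received no tamoxifen. P8 glia carried vGlut3-iCreER/+ with the same reporter, received tamoxifen at P2 and P3, and were picked from ganglion tissue only, because this driver also marks inner hair cells. SGNs at P8, of the same genotype as those at P30, are given side by side. All picked cells expressed tdTomato and went through pronase digestion, picking by hand and washing before their RNA was amplified. The age, the Cre driver, the tamoxifen and the cell type all differed between P30 SGNs and P8 glia, so their shares in a difference cannot be told apart.

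SGNs are the bipolar neurons that carry sound information from hair cells to the brainstem. They release glutamate, fire at high rates and depend on voltage-gated sodium and potassium channels placed along a myelinated axon. Schwann cells wrap these axons with compact myelin and lay down a basement membrane around themselves, and satellite glia ensheathe the cell bodies. Both glial types arise from neural crest cells and depend on the transcription factor Sox10. In the first postnatal weeks Schwann cells of peripheral nerves are still dividing and myelinating.

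The P30 SGN libraries came from 114, 90 and 90 cells and held 37287489, 20384100 and 25085038 counts on genes (replicates 1, 2 and 3, the order used for all values). The glial libraries came from 125, 86 and 101 cells and held 19759856, 11951381 and 10368240 counts. At these depths 3 counts in 1 library corresponded to between 0.0805 and 0.289 CPM. Libraries resembled each other more among the P30 SGNs than among the glia, with a mean Pearson r of log2 expression of 0.959 within P30 SGNs, 0.785 within glia and 0.557 between both groups. Glial replicate 1 stood apart from the other glial libraries toward the neurons: its mean r with the P30 SGNs was 0.632, against 0.53 and 0.509 for replicates 2 and 3. P30 SGN replicate 1 held more glial transcripts than the other P30 libraries, with 358 TPM summed over 24 myelin genes against 242 and 95.2 TPM. Counts of calls and medians of the lists grouped by role are therefore also given without these libraries, in the order glial replicate 1 and P30 SGN replicate 1. Levels are in TPM, counts divided by gene length and scaled to the same sum in every library, which orders genes within a library. Gm23935, a noncoding gene of 57 bases, held between 37.4% and 54.1% of the TPM in P30 SGNs and between 57.8% and 64% in glia, so TPM values of all other genes are scaled down more in glia. In P8 SGNs it held 44.5%, 12.6% and 54.8%, so TPM values and sums of P8 SGN replicate 2 are raised against those of the other P8 SGN libraries. Differences between groups therefore come from the fit, not from TPM ratios. They are log2 fold changes of P30 SGNs over P8 glia, with their standard error (SE), from limma-voom with TMM normalisation on all 21 libraries and Benjamini-Hochberg adjusted p-values over 17531 genes. A gene was called at a change of at least 4-fold and an adjusted p below 0.01. Of the 145 genes named from the lists and largest differences, 44 share exon bases with another annotated gene, 16 of them on the same strand, so part of their counts may belong to a neighbour.

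Quantitative PCR for marker genes, Sox10 and Myo6 among them, decided which libraries were sequenced, so these do not test the labels independently. The primers for Sox10 are shown because they were the glial entry test of each library, in the study's 5′ to 3′ orientation:
Sox10 forward: cgagcaaggaggggct
Sox10 reverse: ctctggcctgaggggtg
Sox10 was at 2.11, 0.531 and 0.14 TPM in P30 SGNs and at 240, 239 and 115 TPM in glia (log2 fold change -8.39 ± 1 SE, adjusted p = 1.2e-06), with no overlap. Shh, whose locus drives the Cre in the SGNs, was at 4.05, 2.72 and 1.6 TPM in P30 SGNs, while glia had 1 to 3 counts in all. Slc17a8, whose locus drives the Cre in the glia and which encodes the vesicular glutamate transporter of inner hair cells, was at 1.35, 12.6 and 9.55 TPM in P30 SGNs and at 28.3, 16.2 and 48 TPM in glia. It was called higher in glia (log2 fold change -2.67 ± 0.72, adjusted p = 0.0044), but not without glial replicate 1 (adjusted p = 0.01), glial replicate 3 (0.018) or P30 SGN replicate 1 (0.078).

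Of the 13664 genes, 4296 were called (31.4%): 2559 were higher in P30 SGNs (18.7%) and 1737 were higher in P8 glia (12.7%). With sample quality weights, which lower the influence of the more variable glial libraries, 1120 were called higher and 1680 lower. Every P30 SGN library lay above or below every glial library for 7870 genes (57.6%), with 27.3% higher in every P30 SGN library and 30.3% higher in every glial library. Of the 4296 calls, 1152 higher and 835 lower ones were of genes that passed the 1 CPM limit in both groups. Differences were often large: 1277 called genes were over 16-fold higher in P30 SGNs and 911 over 16-fold higher in glia. The median log2 fold change of all 13664 genes was 0.24 and moved to -0.03 when libraries were scaled by size only; the share of calls that were higher in P30 SGNs moved from 59.6% to 51.5%. Protein-coding genes made up 2251 of the calls higher in P30 SGNs and 1433 of those higher in glia. Among 1050 long noncoding genes, 219 were called higher in P30 SGNs and 248 higher in glia.

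**Figure D1:**
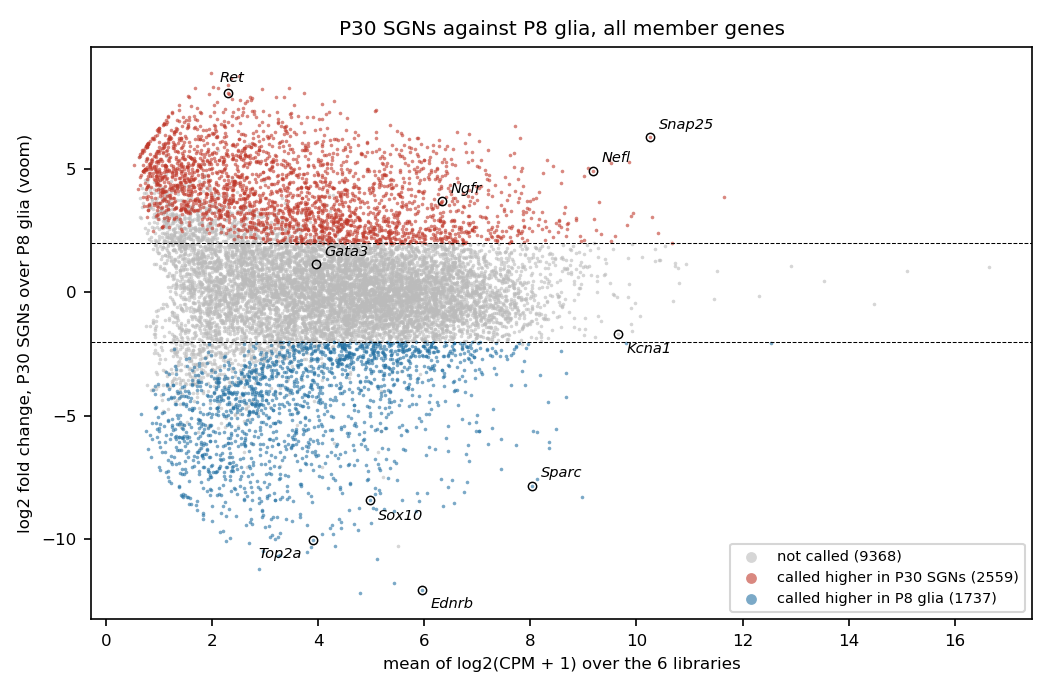
Each point is 1 of the 13664 genes, with the mean of log2(CPM + 1) over the 6 libraries on the x axis and the log2 fold change of P30 SGNs over P8 glia on the y axis; dashed lines mark 4-fold. Called genes (red, 2559 higher in P30 SGNs; blue, 1737 higher in P8 glia) spread over all levels, and Gata3 and Kcna1 are among the named genes that were not called.

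Genes of SGN and neuronal identity were mostly higher in P30 SGNs: 15 of 18 were called higher and none lower, with a median log2 fold change of 4.71 (2 of the 20 listed genes did not pass the 1 CPM limit). Of the 18, 16 passed it in both groups, with 13 of the 15 calls. The summed level of the 20 genes was 2560, 3530 and 2070 TPM in P30 SGNs and 289, 140 and 49.2 TPM in glia, highest in glial replicate 1. Without that library, or without P30 SGN replicate 1, the same number was called, and the medians were 5.62 and 4.67. Transcripts for glutamate release were led by Slc17a6 and Slc17a7, the vesicular glutamate transporters vGlut2 and vGlut1. Slc17a6 was at 120, 162 and 123 TPM in P30 SGNs and at 18.7, 0.938 and 0.865 TPM in glia (log2 fold change 5.27 ± 0.75, adjusted p = 1e-05). Both groups were well separated, and glial replicate 1 was the glial library nearest to the neurons. The calcium-binding proteins Pvalb (log2 fold change 5.25 ± 0.73) and Calb2 (5.39 ± 0.61) were at 411 to 811 TPM and 248 to 828 TPM in P30 SGNs and at or below 38.6 and 9.48 TPM in glia.

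Transcription factors of SGN specification did not behave alike. Pou4f1 was at 27.9, 28.1 and 22.5 TPM in P30 SGNs and at 2.03, 0.313 and 0.0454 TPM in glia (log2 fold change 6.06 ± 0.9, adjusted p = 1.5e-05), and Isl1 was also called higher (4.49 ± 0.77). Gata3, which SGNs require during development, was at 10.9, 8.98 and 3.83 TPM against 4.08, 3.04 and 2.59 TPM in glia. Its lowest neuronal library lay within the glial range and it was not called (log2 fold change 1.14 ± 0.57, adjusted p = 0.11). The neurotrophin receptors TrkB (Ntrk2) and TrkC (Ntrk3) were both called higher. Ntrk3 was at 29.3, 48 and 30.2 TPM against 3.5, 0.888 and 2.4 TPM (log2 fold change 3.96 ± 0.38, adjusted p = 1e-07). Ntrk2 had the higher glial level of the pair, at 36.3, 47 and 28.8 TPM in P30 SGNs and at 11.9, 7.84 and 4.51 TPM in glia, with a log2 fold change of 2.13 ± 0.23 that was 1.86 without glial replicate 3. The AMPA receptor subunit Gria3 did not separate the groups (18.2, 41.2 and 12.7 TPM against 25.3, 31.9 and 13 TPM, adjusted p = 0.63). Its partner Gria2 was called higher in P30 SGNs (log2 fold change 2.42 ± 0.58, adjusted p = 0.0017), with 1.29 without glial replicate 3. Prph, the intermediate filament peripherin, did not pass the 1 CPM limit, because its level was 108 TPM in P30 SGN replicate 1 and 2.99 and 0.306 TPM in the others, and neither did the proneural factor Neurod1.

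All 8 genes that the study followed by in situ hybridisation were called higher in P30 SGNs; since the study chose them on these libraries, their direction is not independent evidence. Their median of 6.07 was 7.42 and 5.95 without the libraries that stood apart, with 8 calls in both fits. Of the 8, 5 passed the 1 CPM limit in both groups. Gabbr2, a subunit of the GABA-B receptor, was at 86.6, 101 and 66.6 TPM against 2.63, 0.757 and 0.238 TPM in glia (log2 fold change 6.47 ± 0.62, adjusted p = 8.3e-08). Esrrg, an orphan nuclear receptor, was at 121, 153 and 109 TPM against 8.08, 0.784 and 0.581 TPM. The zinc-finger factors Scrt1 and Scrt2 were at 33.3 to 113 TPM in P30 SGNs and at or below 4.61 TPM in glia. Celf4, an RNA-binding protein, was at 94.3, 94.6 and 86.9 TPM in P30 SGNs and at 8.62, 0.987 and 0.865 TPM in glia. It was the 1 gene of the 8 that also differed with age, being higher at P30 than at P8 (log2 fold change 1.12, adjusted p = 0.024).

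The presynaptic release machinery lay almost wholly on the neuronal side. Of 26 genes, 25 were called higher in P30 SGNs and none lower, with a median log2 fold change of 4.94, and 23 of the 25 passed the 1 CPM limit in both groups. The medians were 6.07 without glial replicate 1 and 5 without P30 SGN replicate 1, with 25 calls in both fits. Snap25, the SNARE protein of the plasma membrane, was among the most abundant nuclear transcripts of P30 SGNs at 2420, 2770 and 1900 TPM, and was at 8.19 to 104 TPM in glia (log2 fold change 6.29 ± 0.45, adjusted p = 2.3e-09). All glial libraries held some Snap25, and most of it was in replicate 1. The calcium sensor Syt1 was at 59.6, 62.6 and 52.4 TPM against 0.858, 1.85 and 0.407 TPM (log2 fold change 5.98 ± 1.02, adjusted p = 7.1e-05). The complexin Cplx1 and the vesicle proteins Syp and Sv2a had log2 fold changes of 5.04, 5.55 and 5.95. Vamp2, the SNARE of the vesicle membrane, had the smaller value of 2.52 ± 0.43 and was at 47.9, 12.5 and 17.6 TPM in glia. Between ages 3 of the 26 genes were higher at P30 than at P8 and none lower, among them Snap25 (log2 fold change 1.4, adjusted p = 3.7e-07) and Syt1 (1.43, adjusted p = 0.014).

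Voltage-gated sodium and potassium channels differed strongly, but not all in the neuronal direction. Of 31 genes, 24 were called higher in P30 SGNs and none lower, with a median log2 fold change of 4.87. Of the 31, 20 passed the 1 CPM limit in both groups, with 15 of the 24 calls. The median was 5.91 without glial replicate 1, and 1 gene was called higher in glia beside 24 higher in P30 SGNs: the Kv1 channel Kcna4 (-4.89, adjusted p = 0.0039), picked after its value was seen. Without P30 SGN replicate 1 the counts were 24 and 0 and the median was 4.9. Scn4b, the sodium channel subunit linked to resurgent current, was at 94.7, 161 and 80.4 TPM in P30 SGNs and at 2.75, 0.469 and 0.383 TPM in glia (log2 fold change 6.8 ± 0.68, adjusted p = 1.6e-07). Hcn2, which carries the hyperpolarisation-activated current, was at 23.4, 38.1 and 24.8 TPM against 0.347, 0.213 and 0.232 TPM (6.57 ± 0.69). Every P30 SGN library of these genes was more than an order of magnitude above every glial library. The delayed rectifier Kcnb2 (6.41 ± 0.85), the Kv1 auxiliary subunit Kcnab2 (5.93 ± 0.53) and the ERG channel Kcnh2 (3.08 ± 0.27) were also called higher.

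The Kv1 channels, which sit beside the node of Ranvier in axons, were the exception. Kcna1 was at 108, 199 and 96.1 TPM in P30 SGNs and at 428, 332 and 383 TPM in glia, so every glial library lay above every neuronal one. Its log2 fold change was -1.68 ± 0.17 (adjusted p = 1.4e-07), below the 4-fold limit, and it was the ion channel gene with the highest level in glia among the 32 listed. Kcna6 was likewise higher in every glial library, at 27.9, 11.7 and 5.89 TPM against 4.31, 4.37 and 2.88 TPM (-1.93 ± 0.49, adjusted p = 0.003, not called). Kcna2 was higher in P30 SGNs by less than 4-fold, at 155, 242 and 131 TPM against 66.6, 78.5 and 41.9 TPM (1.39 ± 0.18). Channels were also the list with the most genes higher at P30 than at P8: 12 of 31 were higher and 1 was lower, against 1.98% and 2.24% of all genes. Kcnb2 (log2 fold change 2.13), Scn4b (1.5), Hcn2 (1.38), Kcna2 (1.22) and Kcnab2 (1.17) were among the 12. Scn2b, named after its value was seen, was the 1 gene that was lower (-1.21, adjusted p = 0.014).

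Of 27 genes of the axonal cytoskeleton and transport, 21 were called higher in P30 SGNs and none lower, with a median log2 fold change of 3.85 (23 and 4.46 without glial replicate 1, 20 and 3.61 without P30 SGN replicate 1). Of the 27, 25 passed the 1 CPM limit in both groups, with 19 of the 21 calls. The neurofilament light chain Nefl was at 1390, 1880 and 993 TPM in P30 SGNs and at 118, 28.2 and 14.9 TPM in glia (4.93 ± 0.43, adjusted p = 3.1e-08). The heavy chain Nefh was at 785, 954 and 520 TPM against 49.7, 22.9 and 4.25 TPM (5.13 ± 0.62). The exons of Nefl and of the medium chain Nefm overlap on opposite strands, so their counts may not be fully separate. The kinesin Kif5b, a motor used by many cell types, was at 55.4, 73.8 and 47.4 TPM in P30 SGNs and at 62.7, 46.4 and 69.1 TPM in glia and was not called (-0.1 ± 0.15, adjusted p = 0.64). The axonal kinesin Kif1a had a narrow spread in both groups, at 364, 410 and 280 TPM against 102, 101 and 87.8 TPM, and its log2 fold change of 1.78 ± 0.13 stayed below 4-fold. Sptbn4, the spectrin of the axon initial segment and nodes, had a log2 fold change of 6.62 ± 1.54 (adjusted p = 0.0014), but its adjusted p was 0.017 without glial replicate 2 and 0.02 without replicate 3.

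Genes of RNA binding and splicing in neurons, a list that also holds the transcriptional repressor Rest, fell on both sides. Of 21 genes, 11 were called higher in P30 SGNs and 4 higher in glia, with a median log2 fold change of 2.26 (12, 4 and 2.96 without glial replicate 1, 11, 4 and 2.18 without P30 SGN replicate 1). Of the 21, 13 passed the 1 CPM limit in both groups, with 4 of the 11 neuronal calls and all 4 glial calls. Rbfox1 was at 51, 49.4 and 20.8 TPM in P30 SGNs and at 2.23, 2.16 and 0.307 TPM in glia (4.88 ± 0.69, adjusted p = 8.9e-06), and the Hu protein Elavl2 (6.11 ± 0.78) and the neuronal splicing factor Nova2 (5.67 ± 0.83) were also on the neuronal side. Celf6 had no count in glia and was at least 8.29-fold higher in P30 SGNs, with 3 counts per library taken as the limit. The 4 genes on the glial side were Qk, Ptbp1, Celf2 and Rest. Qk, whose protein is needed for myelin transcripts, was at 6.68, 5.19 and 3.63 TPM in P30 SGNs and at 247, 250 and 231 TPM in glia. The libraries of each group lay close together (-5.61 ± 0.27, adjusted p = 2.7e-11). Ptbp1, which represses neuronal exons, was at 9.62, 7.21 and 4.49 TPM against 89, 55.8 and 72.3 TPM (-3.43 ± 0.47, adjusted p = 6.2e-06).

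Rest, the repressor of neuronal genes in non-neuronal cells, was at 1.6, 1.69 and 1.31 TPM in P30 SGNs and at 32.2, 17.2 and 62.7 TPM in glia (-4.45 ± 0.62, adjusted p = 7.9e-06). Its binding element, RE1, joins the short sites CAGCACC and GGACAG, here searched with any 2 bases between them on both strands of 300 bases around RefSeq gene starts (GRCm38.p6, 250 bases before and 50 after). Shares are of genes with a RefSeq promoter, and a gene with several starts was counted once. This string was in 11 of all 27025 such genes (0.0407%), in 5 of 1815 called higher in P30 SGNs (0.275%) and in 0 of 1174 called higher in glia. Among the 5 genes was Sptbn4, with the match at a single start (the 250 bases before this start, chr7:27396199-27396448, minus strand), shown with the match in capitals:
Sptbn4: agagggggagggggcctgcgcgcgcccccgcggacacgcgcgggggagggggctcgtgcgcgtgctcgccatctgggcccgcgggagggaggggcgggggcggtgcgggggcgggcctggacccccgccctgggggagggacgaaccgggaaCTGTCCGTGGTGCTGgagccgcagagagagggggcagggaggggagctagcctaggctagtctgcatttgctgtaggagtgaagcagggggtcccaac
The match is a description of the sequence and binding was not measured. Sptbn4 was at 9.27, 13.7 and 6.62 TPM in P30 SGNs and at 0.503, 0.0407 and 0.0222 TPM in glia.

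**Figure D2:**
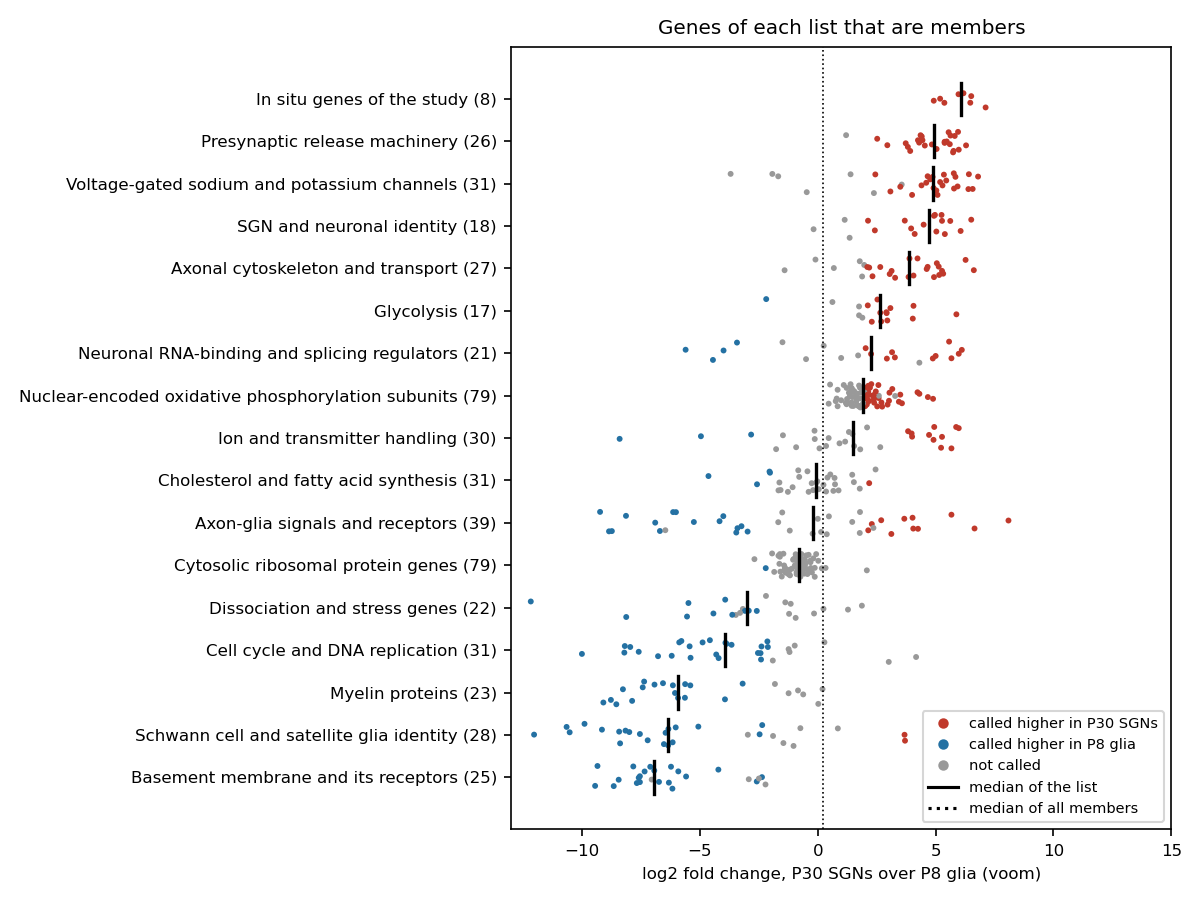
Each point is a gene of the list named on the left, placed by its log2 fold change of P30 SGNs over P8 glia (x axis); the number of genes stands beside each list, black bars are list medians and the dotted line is the median of all 13664 genes (0.24). Medians run from 6.07 for the study's in situ genes to -6.94 for the basement membrane, and only the lists of RNA-binding and splicing regulators, glycolysis, ion handling, fatty acid synthesis, axon-glia signals and Schwann cell identity hold calls in both directions.

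Glial identity genes were the mirror of this, with 2 exceptions. Of 28 genes of Schwann cells and satellite glia, 20 were called higher in glia and 2 higher in P30 SGNs, with a median log2 fold change of -6.34. Of the 28, 14 passed the 1 CPM limit in both groups, with 6 of the 20 glial calls and both neuronal calls. Without glial replicate 1 and without P30 SGN replicate 1, 21 were called higher in glia, 2 were called higher in P30 SGNs, and the medians were -6.22 and -7.04. The transcription factor Foxd3, a neural crest and early Schwann cell gene, was at 0.202, 0 and 0.0409 TPM in P30 SGNs and at 84.1, 102 and 73.5 TPM in glia (-10.53 ± 1.16, adjusted p = 4.7e-07). Pou3f1 (Oct6), which marks the promyelinating Schwann cell, was at 36, 25.7 and 17.5 TPM in glia and at or below 0.0611 TPM in P30 SGNs, and Egr2 (Krox20), which drives myelination, was at 475, 409 and 300 TPM against 12.7, 7.15 and 0.657 TPM. Ednrb, the endothelin B receptor of the neural crest lineage, was at 599, 614 and 483 TPM in glia and at 1.43, 0.267 and 0 TPM in P30 SGNs (-12.04 ± 1.62, adjusted p = 5e-06).

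Genes often named for satellite glia gave a mixed picture. Fabp7, a fatty acid binding protein, was at 499, 603 and 254 TPM in glia against 6.3, 2.02 and 0.304 TPM (-8 ± 1.55), and the potassium channel Kcnj10 (Kir4.1) at 132, 209 and 125 TPM against 3.9, 2.4 and 0.562 TPM (-6.35 ± 0.57). Glutamine synthetase, Glul, differed less: it was at 93, 77.1 and 65.8 TPM against 26.8, 17.1 and 7.63 TPM (-2.36 ± 0.34, adjusted p = 1.1e-05). The glutamate transporter Slc1a3 was at 1.76, 3.08 and 15.1 TPM in glia against 1.3, 0.443 and 0.156 TPM and was not called (adjusted p = 0.013), but was called without glial replicate 1 (-3.81, adjusted p = 0.002). Gfap did not pass the 1 CPM limit, with counts in glial replicate 1 alone among the glia.

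S100b and Ngfr, both used as Schwann cell markers, were higher in the neurons. S100b, a calcium-binding protein, was at 238, 337 and 221 TPM in P30 SGNs and at 25.3, 29.3 and 7.87 TPM in glia (log2 fold change 3.68 ± 0.53, adjusted p = 1e-05). Ngfr, the p75 neurotrophin receptor, was at 140, 111 and 90.3 TPM in P30 SGNs and at 16.6, 1.3 and 21.3 TPM in glia (3.7 ± 0.61, adjusted p = 5.3e-05). All neuronal libraries lay above all glial ones for both genes, and both were also called higher in P8 SGNs than in glia (2.76 and 3.58).

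Myelin genes included some of the most abundant nuclear transcripts of the glia. Of 23 genes, 17 were called higher in glia and none higher in P30 SGNs, with a median log2 fold change of -5.93 (18 and -5.76 without glial replicate 1, 18 and -6.18 without P30 SGN replicate 1). Of the 23, 14 passed the 1 CPM limit in both groups, with 9 of the 17 calls. Pmp22, a membrane protein of compact myelin, was at 1240, 1910 and 1680 TPM in glia, against 135, 24.5 and 2.06 TPM in P30 SGNs (-6.06 ± 0.9, adjusted p = 1.6e-05). The glial libraries lay close together, while the P30 SGN libraries ranged widely, with replicate 1 highest. Mbp, which central myelin also uses, was at 317, 418 and 213 TPM in glia against 10.6, 8.44 and 2.44 TPM (-5.64 ± 0.51). Periaxin, Prx, which links the outer Schwann cell membrane to the basement membrane, was at 162, 140 and 109 TPM in glia against 3.48, 2.39 and 0.306 TPM (-6.57 ± 0.68).

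Not every myelin gene followed. Ugt8a, which makes galactosylceramide, was at 27.8, 69.9 and 27.1 TPM in P30 SGNs and at 34.1, 33.5 and 35.2 TPM in glia (0.02 ± 0.27, adjusted p = 0.96). Gldn (gliomedin), which gathers sodium channels at forming nodes, was at 15.4, 18.9 and 7.36 TPM against 10.2, 12.6 and 10.5 TPM (0.2 ± 0.37, adjusted p = 0.68), and in P8 SGNs it was at 46.3, 128 and 34.6 TPM, with the highest value in the library whose TPM is raised, and above glia (log2 fold change 2.11). Mag, the myelin-associated glycoprotein at the axon-facing membrane, was far lower in level than Pmp22, at 39, 7.29 and 20.6 TPM in glia. Gjb1 (connexin 32), a gap junction protein of myelin, was at 1.95, 1.71 and 1.12 TPM in glia and had 1 to 3 counts in P30 SGNs, a ratio of 100 (counting interval 27.1 to 839), while Gjc3 (connexin 29) was at 466, 542 and 467 TPM against 2.41, 1.14 and 0.741 TPM in P30 SGNs (-8.55 ± 0.85, adjusted p = 1.3e-07). Between these connexins Gjc3 was thus by far the more abundant in every glial library.

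**Figure D3:**
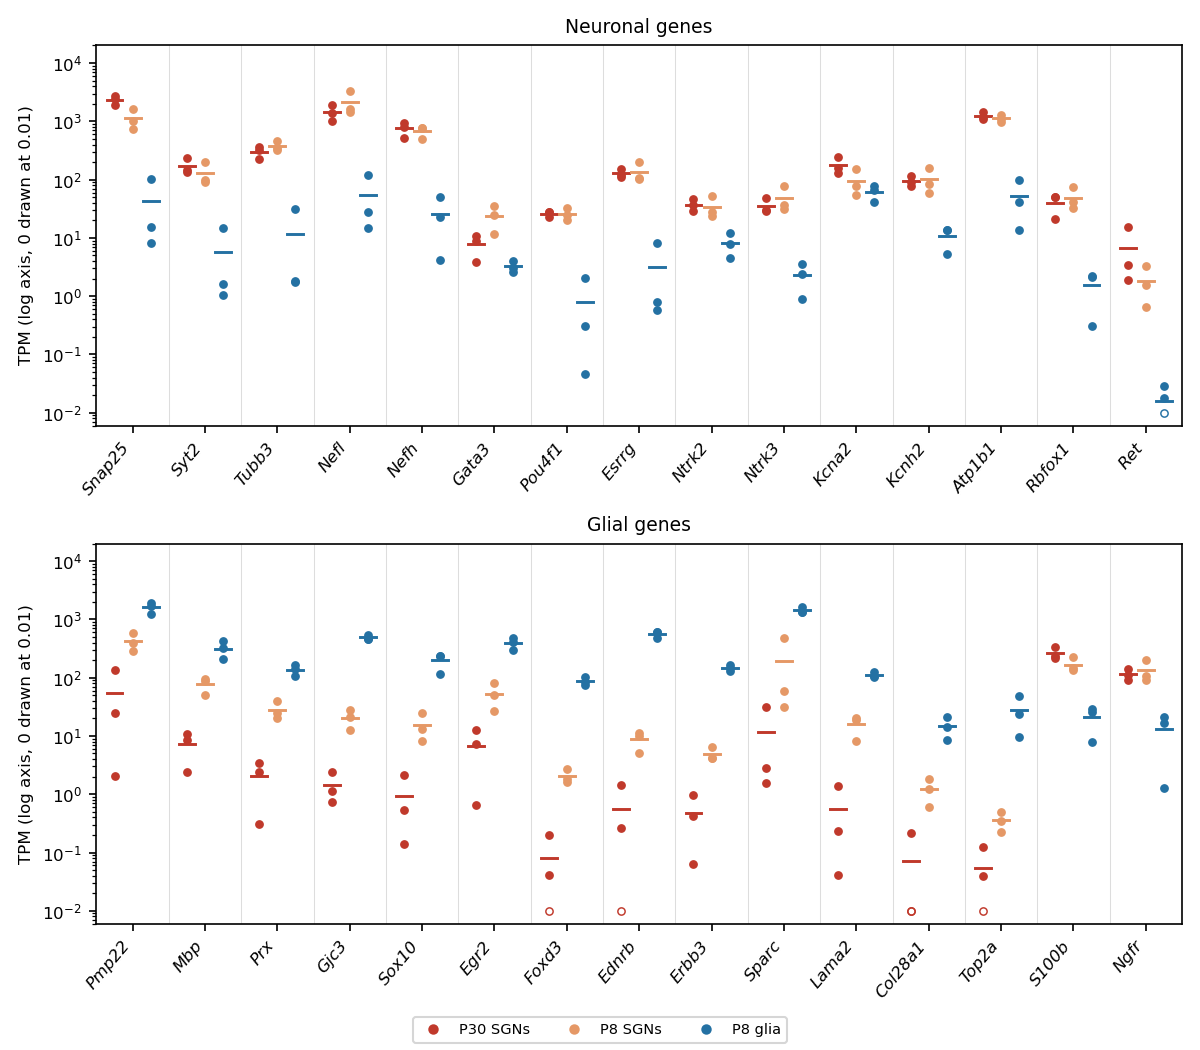
TPM of 15 neuronal genes (top) and 15 glial genes (bottom) in each library on a log axis, with P30 SGNs in red, P8 SGNs in orange and P8 glia in blue; points are libraries, bars are means, and open points at 0.01 mark a value of 0. P8 SGNs sit with P30 SGNs for most neuronal genes and between P30 SGNs and glia for most glial genes, while S100b and Ngfr are highest in the neurons.

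The basement membrane and its receptors gave the lowest median of the lists grouped by role. Of 25 genes, 21 were called higher in glia and none higher in P30 SGNs, with a median log2 fold change of -6.94. Every one of the 25 had a negative value, but only 11 passed the 1 CPM limit in both groups, with 9 of the 21 calls. For genes that passed in glia alone, the limit itself favoured a negative value. Without glial replicate 1 and P30 SGN replicate 1, 21 and 20 were called, with medians of -6.91 and -7.72. The laminin chain Lama2, part of the laminin of peripheral nerve, was at 102, 109 and 123 TPM in glia and at 1.38, 0.237 and 0.0407 TPM in P30 SGNs (-8.66 ± 0.87, adjusted p = 1.6e-07). Its partner Lamc1 was at 511, 515 and 361 TPM against 9.39, 6.54 and 3.08 TPM (-6.32 ± 0.48, adjusted p = 4.6e-09). The receptor dystroglycan, Dag1, differed with a small error, at 323, 403 and 361 TPM against 23.8, 24.2 and 12.7 TPM (-4.22 ± 0.22, adjusted p = 4.2e-11). Col28a1, a collagen of peripheral glia, was at 21.4, 14.5 and 8.65 TPM against 0.216, 0 and 0 TPM. Sparc, a matrix protein, was the third most abundant nuclear protein-coding transcript of the glia at 1340, 1620 and 1330 TPM. In P30 SGNs it was at 31.2, 2.85 and 1.53 TPM, and without P30 SGN replicate 1 its adjusted p was 0.015 (log2 fold change -9.46).

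Fibroblast markers also had higher levels in glia. All 8 listed markers had negative log2 fold changes (median -6.33), 4 of them called (5 without glial replicate 1, 5 without P30 SGN replicate 1). Only 1 of the 8 passed the 1 CPM limit in both groups, and it was not called, so the limit itself favoured these signs. The summed level of the 8 was 301, 446 and 347 TPM in glia and 24.8, 1.69 and 0.403 TPM in P30 SGNs. Col1a2 made up much of this at 138, 195 and 182 TPM in glia, Col3a1 was at 89.9, 119 and 85.7 TPM, and the fibroblast markers Dcn (2.68, 38.3 and 10.3 TPM) and Lum (11.8, 5.01 and 6.68 TPM) were low in glia and not called, although Dcn was called without glial replicate 1 (-7.82) or P30 SGN replicate 1 (-9.48). Their part in the basement membrane result was not tested. Markers of macrophages, oligodendrocytes and red blood cells had no gene over the 1 CPM limit in all 3 libraries of either group. The 10 macrophage and microglia markers nevertheless summed to 54.3, 53.2 and 0.724 TPM in glia, against 2.22, 2.13 and 0.558 TPM in P30 SGNs. In replicates 1 and 2 nearly all of this was the lysosomal gene Cd68, at 52.3, 52.5 and 0.506 TPM in glia. Csf1r was at 1.84, 0.538 and 0.217 TPM in glia, while Aif1, C1qa, C1qc, Ctss, Cx3cr1, Ptprc and Tyrobp had no count there. The endothelial (1 of 7 genes over the limit), pericyte (3 of 6), melanocyte (2 of 6), osteoblast (1 of 5) and astrocyte markers (3 of 6) had summed levels of at most 42.6 TPM in any glial library. Markers of cochlear supporting cells, 4 of 8 over the limit, summed to 12.4, 110 and 110 TPM in glia and to 18.5, 1.38 and 0.613 TPM in P30 SGNs. Hair cell markers were present in both groups. Of 11 over the limit, 1 was called, Slc17a8, higher in glia (a call lost in several fits, as given above), and their median log2 fold change was 0.19. The sums of the listed markers were 411, 177 and 118 TPM in P30 SGNs and 444, 101 and 128 TPM in glia against 6070 to 7400 TPM in hair cells at P12. Ocm, the oncomodulin of outer hair cells, led these sums in replicate 1 of both groups, at 297 TPM in P30 SGNs and 275 TPM in glia. In bulk libraries fewer cells of a type cannot be told apart from less RNA per cell.

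Cell cycle genes were higher in glia than in P30 SGNs. Of 31 genes of the cell cycle and DNA replication, 24 were called higher in glia and none higher in P30 SGNs, with a median log2 fold change of -3.92. Of the 31, 12 passed the 1 CPM limit in both groups, with 10 of the 24 calls. The list also holds inhibitors of cyclin-dependent kinases, and some of these are among the 24. Without glial replicate 1, 16 were called higher in glia and 1 higher in P30 SGNs, and the median was -3.79. Without P30 SGN replicate 1, 16 were called higher in glia and none higher in P30 SGNs, and the median was -4.02. Top2a, the topoisomerase of dividing cells, was at 48.4, 24.2 and 9.57 TPM in glia and at 0.122, 0.0399 and 0 TPM in P30 SGNs (-10.01 ± 1.75, adjusted p = 8.9e-05). Birc5 (survivin) was at 8.67, 15.6 and 1.75 TPM in glia and at or below 0.0279 TPM in P30 SGNs (-8.19 ± 1.37). The glial libraries differed from each other by up to several fold for these genes, and replicate 3 was lowest. The S-phase gene Pcna, used also in DNA repair, was at 59.4, 48.4 and 59.2 TPM in glia and at 15.1, 16.3 and 8.82 TPM in P30 SGNs (-2.14 ± 0.29, adjusted p = 6.6e-06).

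Of the inhibitors of cyclin-dependent kinases, Cdkn1a (p21) and Cdkn1c (p57) were called higher in glia, at 131, 140 and 54.8 TPM and at 80.9, 20.7 and 79.8 TPM in glia against 18.4, 4.45 and 1.24 TPM and 2.67, 1.32 and 0.536 TPM in P30 SGNs (-4.31 ± 0.79 and -5.4 ± 0.94). Cdkn1b (p27) was not called and its groups overlapped, at 67.6, 38.9 and 56.8 TPM against 24.2, 52.7 and 20.1 TPM (-0.98 ± 0.25, adjusted p = 0.0027). The replication helicase gene Mcm6 was at 14.8, 8.18 and 0.91 TPM in glia (-3.66 ± 1.02, adjusted p = 0.0057), and the mitotic kinase Cdk1 at 19, 7.2 and 1.72 TPM (-4.89 ± 1.22, adjusted p = 0.0025). Neither was called without glial replicate 1, where the adjusted p was 0.012 for Cdk1 and 0.036 for Mcm6. The call of Cdk1 was also lost without P30 SGN replicate 1 (0.024) or 3 (0.01). That of Mcm6 was also lost without glial replicate 2 (0.015) or P30 SGN replicate 1 (0.015), 2 (0.02) or 3 (0.028). Between P30 and P8 SGNs no cell cycle gene was called in limma-voom, edgeR or DESeq2 (1 of 31 had an unadjusted p under 0.05 in limma-voom).

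Short motifs known from cell cycle promoters were searched in the promoters of called genes. The CCAAT box, searched as CCAAT on both strands, was in 16 of the 19 called cell cycle genes with a RefSeq promoter (84.2%) and in 11096 of all 27025 genes with one (41.1%). It was also in 11 of 17 called Schwann cell and satellite glia genes (64.7%), 7 of 12 called myelin genes (58.3%) and 8 of 20 called presynaptic genes (40%). E2F sites, searched as TTTCCCGC, TTTGGCGC or TTTCGCGC, were in 5 of the 19 (26.3%) and in 573 of all genes with a promoter (2.12%), with 1 of 17, 0 of 12 and 1 of 20 in the other lists. The cell cycle element CHR, searched as TTTGAA on both strands, was in 6 of the 19 (31.6%) and in 20.2% of all genes with a promoter. It was also in 5 of 17 called Schwann cell and satellite glia genes (29.4%), 2 of 12 called myelin genes (16.7%) and 5 of 20 called presynaptic genes (25%). The 250 bases before the start are shown for a gene with many CCAAT boxes, one with CCAAT and E2F matches and one with several E2F matches. CHR matches, which Top2a and Cdk1 also hold, are not marked. The sequences are in gene orientation on GRCm38.p6, with CCAAT and E2F matches in capitals (ATTGG is CCAAT on the other strand):
Top2a (chr11:99024190-99024439, minus strand): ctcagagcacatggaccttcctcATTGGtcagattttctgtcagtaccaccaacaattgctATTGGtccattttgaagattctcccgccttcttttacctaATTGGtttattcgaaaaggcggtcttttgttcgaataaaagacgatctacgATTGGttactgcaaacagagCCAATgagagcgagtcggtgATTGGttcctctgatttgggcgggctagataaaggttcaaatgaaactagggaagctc
Cdk1 (chr10:69352913-69353162, minus strand): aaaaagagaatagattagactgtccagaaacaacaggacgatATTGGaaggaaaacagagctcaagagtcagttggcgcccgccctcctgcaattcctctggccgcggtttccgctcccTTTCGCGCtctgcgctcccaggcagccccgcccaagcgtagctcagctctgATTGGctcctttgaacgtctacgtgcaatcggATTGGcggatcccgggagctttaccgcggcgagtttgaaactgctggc
Mcm6 (chr1:128359706-128359955, minus strand): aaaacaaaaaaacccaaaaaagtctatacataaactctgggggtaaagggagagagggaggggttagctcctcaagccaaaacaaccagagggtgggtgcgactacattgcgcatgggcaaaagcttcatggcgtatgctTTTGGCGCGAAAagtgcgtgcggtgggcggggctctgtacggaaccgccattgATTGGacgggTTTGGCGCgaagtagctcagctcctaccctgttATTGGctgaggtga
Top2a held 6 CCAAT boxes and no E2F match, Cdk1 held 3 CCAAT boxes and 1 E2F match, and Mcm6 held 2 CCAAT boxes and 3 E2F matches, of which 2 overlap on opposite strands. Factor binding was not measured here. Of the genes called higher in P30 SGNs that had a promoter, 43.7% had a CCAAT box and 3.09% an E2F site, and of those called higher in glia 42.6% and 5.11%.

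Of 22 genes linked to dissociation and stress, immediate early genes among them, 10 were called higher in glia and none higher in P30 SGNs, with a median log2 fold change of -3.01. Of the 22, 17 passed the 1 CPM limit in both groups, with 7 of the 10 calls. Without glial replicate 1, 9 were called higher in glia and 1, Hspa8, higher in P30 SGNs, and without P30 SGN replicate 1 the counts were 7 and 0 (medians -3.02 and -3.27). Fos was at 586, 525 and 616 TPM in glia and at 29.9, 15.3 and 3.67 TPM in P30 SGNs (-5.49 ± 0.76, adjusted p = 7.3e-06), and Nr4a1 at 616, 490 and 385 TPM against 7.32, 1.67 and 0.345 TPM (-8.13 ± 1.23). Egr3 had the largest fitted difference of all named genes, at 215, 162 and 138 TPM in glia and at 0.196, 0.0408 and 0 TPM in P30 SGNs (-12.18 ± 1.04, adjusted p = 2.2e-08). Fos, Fosb and Nr4a1 ranked among the 12 most abundant nuclear protein-coding genes of the glia. The chaperone Hspa8, in contrast, was at 852, 1250 and 674 TPM in P30 SGNs and at 292, 165 and 238 TPM in glia (1.87 ± 0.16), and Hspa5, which answers stress of the endoplasmic reticulum, did not separate the groups (0.24 ± 0.26, adjusted p = 0.48). Gadd45b, a stress-induced gene, was called higher in glia at an adjusted p of 0.0044, but not without glial replicate 1 (0.014), glial replicate 3 (0.015) or any P30 SGN library (0.014 to 0.024).

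Of 39 genes for signals between axons and glia and their receptors, 11 were called higher in P30 SGNs and 15 higher in glia, with a median log2 fold change of -0.22 (10, 14 and -0.66 without glial replicate 1, 10, 12 and -0.61 without P30 SGN replicate 1). Of the 39, 26 passed the 1 CPM limit in both groups, with 9 of the 11 neuronal calls and 5 of the 15 glial calls. Nrg1, the axonal growth factor that controls Schwann cell survival and myelination, was at 46.4, 66.2 and 37.4 TPM in P30 SGNs and at 3.67, 0.593 and 0.185 TPM in glia (5.67 ± 0.65, adjusted p = 8.1e-07). Its receptors were called higher in glia: Erbb3 was at 147, 162 and 130 TPM in glia and at 0.964, 0.419 and 0.0631 TPM in P30 SGNs (-8.86 ± 0.8, adjusted p = 4.4e-08), and Erbb2 at 37.8, 59 and 16.7 TPM against 0.391, 0.38 and 0.164 TPM (-6.9 ± 1.04). Within glia Erbb3 was above Erbb2 in every library.

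Gas6 and Axl, a ligand and its receptor tyrosine kinase, were split in the same way. Gas6 was at 63.9, 146 and 68.6 TPM in P30 SGNs and at 21.5, 2.29 and 1.21 TPM in glia (4.02 ± 0.65), while Axl was at 29.8, 32.4 and 11.8 TPM in glia and at 0.28, 0.0358 and 0 TPM in P30 SGNs (-9.24 ± 1.27). For hedgehog signals, both groups expressed a ligand, but not the same one. Dhh, the hedgehog of Schwann cells, was at 144, 205 and 114 TPM in glia and at 1.69, 2.36 and 0 TPM in P30 SGNs (-8.74 ± 1.38). Shh was on the neuronal side, with a ratio of summed CPM of 121 (counting interval 33.3 to 1000). The receptor Ptch1, which like Erbb2 and Gfra1 was picked after its values were seen, was higher in glia, at 24.7, 35 and 62.9 TPM against 3.85, 5.8 and 2.74 TPM (-3.24 ± 0.36, adjusted p = 4.9e-07).

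The receptor pair for glial cell line-derived factors was divided between the groups. Ret, the signalling receptor, was at 15.2, 3.38 and 1.9 TPM in P30 SGNs and at 0.0182, 0.0288 and 0 TPM in glia (8.09 ± 2.01, adjusted p = 0.0024), and its coreceptor Gfra1 was at 5.96, 9.44 and 34.6 TPM in glia and at 3.35, 0.871 and 0.295 TPM in P30 SGNs (-3.41 ± 1.01, adjusted p = 0.0085). Both calls were fragile. That of Ret was lost without any one of the glial libraries (adjusted p between 0.019 and 0.031), and that of Gfra1 without glial replicate 2 or 3 or any P30 SGN library (0.014 to 0.042). The receptors Cntfr and Lifr, which together answer ciliary neurotrophic factor, were both higher in P30 SGNs. Cntfr was at 40.2, 43.5 and 20.7 TPM against 7.34, 5.71 and 9.61 TPM (2.14 ± 0.39, 1.96 without P30 SGN replicate 1), and Lifr at 72, 88 and 52.8 TPM against 17.5, 16 and 26.8 TPM (1.79 ± 0.22, not called).

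Cntn2 (Tag1), an axonal adhesion molecule found beside nodes, was called higher in P30 SGNs, at 26.6, 31.1 and 17.6 TPM against 3.53, 0.68 and 1.98 TPM (3.67 ± 0.47, adjusted p = 2.6e-06). Cadm3, the axonal nectin-like protein, was at 118, 117 and 85.7 TPM against 23.9, 6.52 and 7.58 TPM (3.12 ± 0.32), whereas its glial partner Cadm4 was at 115, 79.9 and 44.4 TPM in glia and 26.6, 42.7 and 24.8 TPM in P30 SGNs. Cadm4 was higher in every glial library but below 4-fold (-1.46 ± 0.3, adjusted p = 0.00049). Lgi4, secreted by Schwann cells, was at 29.4, 13.5 and 29.3 TPM in glia (-8.43 ± 0.99) and its axonal receptor Adam22 at 40.7, 56.4 and 26.1 TPM in P30 SGNs against 10.9, 0.93 and 0.296 TPM (4.25 ± 0.71). Adgrg6 (Gpr126), a receptor that starts Schwann cell myelination, was at 26.5, 21.7 and 34.1 TPM in glia and at or below 0.29 TPM in P30 SGNs (-9.16 ± 1.32). Igf2 was not called despite a log2 fold change of -6.47, since P30 SGN replicate 1 held 13.7 TPM and the other P30 libraries 0.126 and 0.0498 TPM.

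**Figure D4:**
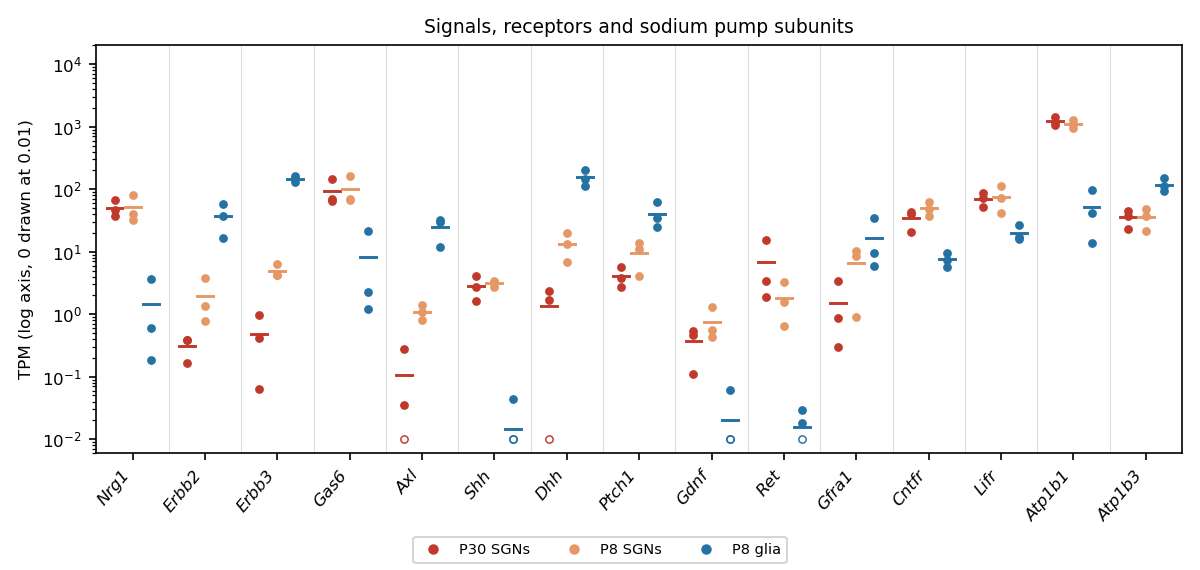
TPM in each library on a log axis for signals, their receptors and sodium pump subunits, with P30 SGNs in red, P8 SGNs in orange and P8 glia in blue; bars are means and open points at 0.01 mark a value of 0. Nrg1, Gas6, Shh, Ret and Atp1b1 are highest in the neurons and Erbb2, Erbb3, Axl, Dhh, Ptch1 and Atp1b3 in the glia.

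Some ion pumps and transporters were higher in P30 SGNs and others in glia, where the share of calls was below that of all genes. For the beta subunits of the sodium pump, Atp1b1 was at 1180, 1430 and 1080 TPM in P30 SGNs against 98.7, 42 and 13.9 TPM in glia (4.72 ± 0.57), and Atp1b3 at 92.5, 112 and 150 TPM in glia against 37.3, 45.6 and 23.1 TPM (-1.77 ± 0.3, not called). The calcium pump Atp2b3 was called higher in P30 SGNs (5.98 ± 0.71), and the cotransporter Slc12a2 (NKCC1) higher in glia, at 56.1, 64.8 and 65.9 TPM against 10.6, 10 and 6.45 TPM (-2.83 ± 0.25, adjusted p = 3.3e-08). Over all 30 genes of ion and transmitter handling, 11 were called higher in P30 SGNs (36.7%, against 18.7% of all genes). In glia 3 were called higher (10%, against 12.7%), and the median was 1.51 (12, 2 and 1.81 without glial replicate 1, 11, 2 and 1.57 without P30 SGN replicate 1).

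For energy metabolism, calls higher in P30 SGNs were found among nuclear genes but not among mitochondrial ones. Of 79 nuclear genes matched as subunits of oxidative phosphorylation, 35 were called higher in P30 SGNs and none lower, all 79 had positive values and the median log2 fold change was 1.92. Without glial replicate 1 and P30 SGN replicate 1, 37 and 36 were called, with medians of 2.04 and 1.99. The medians lay close to the 4-fold limit. Many of the 35 calls were lost when libraries were scaled by size only, or when the 6 libraries were fitted alone. Atp5b, a catalytic subunit of ATP synthase, was at 1110, 1270 and 839 TPM in P30 SGNs and at 336, 227 and 186 TPM in glia, with a log2 fold change of 2.01 ± 0.16 that lay between 1.88 and 1.98 without glial replicate 2 or 3 or P30 SGN replicate 1 or 3. Cox8a differed less, at 354, 437 and 280 TPM against 272, 113 and 184 TPM (0.84 ± 0.24). None of 12 genes encoded in mitochondrial DNA was called, but 10 were higher in every P30 SGN library than in every glial one, with a median of 1.25, or 1.32 and 1.01 without the libraries that stood apart (0 calls also in edgeR and DESeq2, and 10 of the 12 at an unadjusted p under 0.05 in limma-voom). mt-Co1 was at 9910, 10300 and 9050 TPM against 5170, 4240 and 3760 TPM (1.07 ± 0.21, adjusted p = 0.00026). Mitochondrial genes took 20.3%, 17.9% and 22.1% of the counts in P30 SGNs and 13.5%, 11.4% and 10.3% in glia.

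Of 17 glycolysis genes, 12 were called higher in P30 SGNs and 1 higher in glia, with a median of 2.65 (12, 0 and 2.97 without glial replicate 1, 12, 1 and 2.73 without P30 SGN replicate 1). Pkm, pyruvate kinase, was at 282, 410 and 280 TPM against 22, 26.8 and 8.59 TPM in glia (4.06 ± 0.32, adjusted p = 8.3e-09) and was also higher at P30 than at P8 (1.34, adjusted p = 3.9e-05). The neuronal enolase Eno2 was at 254, 388 and 214 TPM against 38.4, 6.23 and 11.4 TPM (4.03 ± 0.42). The forms of lactate dehydrogenase pointed in opposite directions: Ldhb was at 759, 1300 and 840 TPM in P30 SGNs against 253, 141 and 210 TPM (2.12 ± 0.27), and Ldha at 83.2, 39.3 and 46.9 TPM in glia against 41.4, 7.66 and 4.13 TPM (-2.19 ± 0.6, adjusted p = 0.0048). Neither was a firm call, since Ldhb was at 1.94 without glial replicate 2 and 1.99 without P30 SGN replicate 3, and Ldha at -1.82 without glial replicate 1 and -1.7 and -1.69 without P30 SGN replicates 2 and 3.

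Of 79 cytosolic ribosomal protein genes, 1 was called higher in glia (1.27%, against 12.7% of all genes). In 67 of the 79 every glial library was above every P30 SGN library, against 30.3% of all genes, and the median log2 fold change was -0.81 (-0.88 and -0.89 without the libraries that stood apart, with 2 calls each). The called gene was Rplp0 (-2.21 ± 0.36, adjusted p = 5.1e-05, and -1.97 without glial replicate 1). Of 31 genes for cholesterol and fatty acid synthesis, whose products build myelin, 4 were called higher in glia (12.9%, close to the 12.7% of all genes) and 1 higher in P30 SGNs (3.23%, against 18.7%). The median was -0.06, which turned positive in some of the other fits. The calls were 4 and 0 without glial replicate 1, with a median of 0.03, and without P30 SGN replicate 1 they were 3 and 2 and the median was -0.2. The desaturases Scd2 and Scd1 were among the 4. Scd2 was at 438, 503 and 356 TPM in glia against 121, 138 and 74.3 TPM (-2.05 ± 0.17; between -1.92 and -1.99 without glial replicate 2 or P30 SGN replicate 2 or 3), and Scd1 at 73.4, 129 and 120 TPM against 25.5, 18.3 and 9.91 TPM (-2.58 ± 0.36). Elovl1, which lengthens very long fatty acids, was also higher in glia (-4.64 ± 0.87), while the elongase Elovl5 was at 133, 247 and 157 TPM in P30 SGNs against 58.8, 26.4 and 60.7 TPM (1.78 ± 0.3, not called; 2.01 and called without P30 SGN replicate 1). Sc5d, a late enzyme of cholesterol synthesis, was the 1 gene called higher in P30 SGNs (2.18 ± 0.48; 1.75 without glial replicate 1).

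Among the 12 largest differences toward P30 SGNs were genes of several functions. Crtac1, a secreted matrix protein, was the most abundant of them at 78.8, 71.9 and 49.7 TPM in P30 SGNs against 0.283, 0.149 and 0.243 TPM in glia (8.07 ± 1.13, adjusted p = 8.1e-06). Tnfrsf11a (RANK), the receptor known from bone, was at 5.57, 6.54 and 4.47 TPM against 0.0412, 0 and 0 TPM (8.42 ± 1.02, adjusted p = 1.5e-06). Fam43b had no count in glia and was at least 64.2-fold higher in P30 SGNs, where it was at 8.64, 8.97 and 8.85 TPM. Nxph4, a neurexin ligand, was at 11.3, 14.3 and 20.2 TPM and had 1 to 3 counts in glia, a ratio of 372 (counting interval 103 to 3070). Others were the GABA-A receptor subunit Gabrb2 (8.68 ± 1.51), the neuronal olfactomedin Olfm3 (8.78 ± 1), the ectonucleotidase Entpd3 (8.25 ± 0.93), the silent potassium channel subunit Kcns1 (7.93 ± 1.03) and the active zone protein Rims4 (7.9 ± 1.04). In limma-voom with sample quality weights, Nxph4 (adjusted p = 0.036) and Gabrb2 (adjusted p = 0.039) were not called.

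Toward glia, the 12 largest differences included Egr3, Ednrb, Pou3f1, Foxd3, Top2a and Col3a1, described above. Col5a1, a collagen chain, was at 79.8, 104 and 92.4 TPM in glia and at 0.517, 0.0848 and 0 TPM in P30 SGNs (-10.78 ± 1.28, adjusted p = 1.2e-06). Emid1 was at 71.5, 109 and 44.6 TPM against 0.285, 0 and 0.0329 TPM (-10.3 ± 1.11), and Mmp2, a gelatinase, at 66.2, 62.9 and 108 TPM against 2.08, 0 and 0 TPM (-10.28 ± 2.03). Galnt6, which starts O-glycans, had no count in P30 SGNs and was at least 461-fold higher in glia. Vgll3 and E2f7, a cofactor of TEAD factors and a repressor of E2F targets, were at 12.6, 31.1 and 22.2 TPM and at 9.95, 5.93 and 2.36 TPM in glia and had 1 to 3 counts in all P30 SGN libraries together, with ratios of 2400 (counting interval 662 to 19800) and 2170 (599 to 17900).

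The same comparison with SGNs of the glial age gave 3408 calls among the 13664 genes (24.9%), 2105 higher in P8 SGNs (15.4%) and 1303 higher in glia (9.54%). It shares the glial libraries, so its values are set beside those at P30 without a test of likeness. For neuronal lists the medians were close, at 4.38 for identity genes, 4.62 for presynaptic genes and 4.13 for channels. For glial lists they were smaller at P8, at -3.24 for Schwann cell identity, -2.83 for myelin and -3.51 for the basement membrane, while cell cycle genes had a median of -3.01.

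The direct test between the ages found 576 of the 13664 genes called at 2-fold and an adjusted p below 0.05 (4.22%), 270 higher at P30 (1.98%) and 306 higher at P8 (2.24%). Of the glial lists, 13 of 23 myelin genes, 13 of 25 basement membrane genes and 8 of 28 Schwann cell genes were lower in P30 than in P8 SGNs and none was higher. Mbp was at 89.3, 96.1 and 50.7 TPM in P8 SGNs and at 10.6, 8.44 and 2.44 TPM in P30 SGNs (log2 fold change -3.3, adjusted p = 0.00065), and Lamc1 was at 132, 142 and 64.6 TPM against 9.39, 6.54 and 3.08 TPM (-3.89, adjusted p = 6.2e-05). Every P8 SGN library lay above every P30 SGN library for both genes and below every glial library. The summed level of the 24 myelin genes was 1710, 1900 and 972 TPM in P8 SGNs, 358, 242 and 95.2 TPM in P30 SGNs and 9030, 11700 and 8690 TPM in glia. Whether the P8 values come from the neurons or from glial material picked with them was not tested. The number of genes lower at P30 depended on single libraries: it was 126 without P30 SGN replicate 2, 98 without replicate 3 and 203 without P8 SGN replicate 1.

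**Figure D5:**
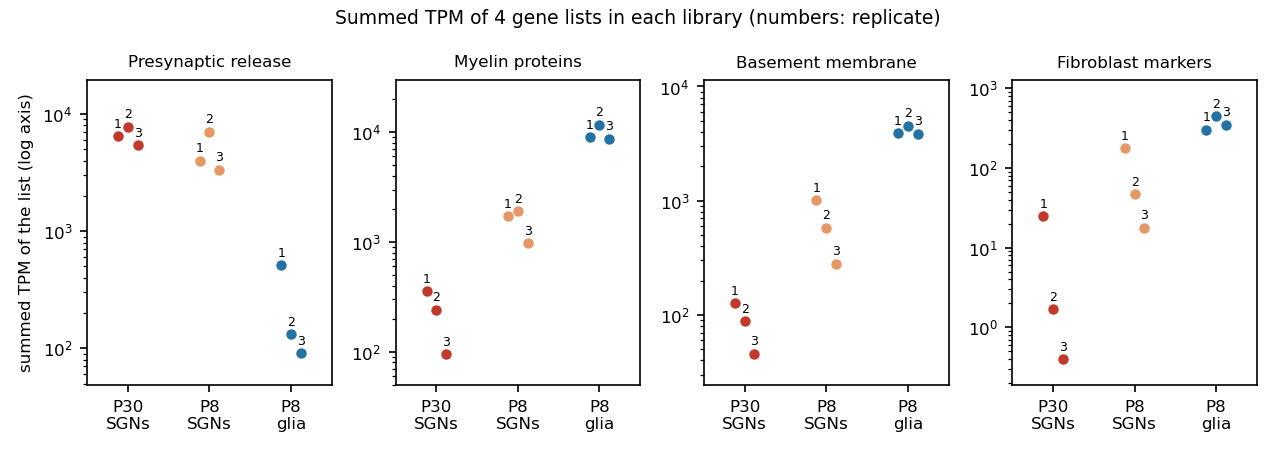
Summed TPM of 4 gene lists in each library on log axes, with replicate numbers beside the points. Presynaptic sums are 5460 to 7830 TPM at P30, 3360 to 7060 TPM in P8 SGNs (highest in replicate 2, whose TPM is raised) and 91 to 515 TPM in glia, myelin and basement membrane sums are lowest in P30 SGNs and highest in glia, and fibroblast marker sums are highest in replicate 1 among the SGN libraries of each age.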

How the data were processed

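RNA of hand-picked SGNs and glia was amplified (Ovation RNA-Seq V2) and sequenced. The hair cells at P12, which are also part of the fit, were sorted by fluorescence according to the paper. They came from Atoh1-CreER+ mice with the same reporter, given tamoxifen. The authors aligned reads to mm10 with STAR 2.4.0i and deposited raw counts per gene from featureCounts with GENCODE vM15; strand and multimapping settings were not given in the sources used here. From these deposited counts, CPM and TPM were computed, and limma-voom (limma 3.58.1, edgeR 4.0.16, R 4.3.3) with TMM was fitted to 7 group means over all 21 libraries, on 17531 genes with a CPM over 1 in all libraries of at least 1 group. Calls required 4-fold and an adjusted p under 0.01 against glia, and 2-fold and 0.05 between ages. The fit was tested on simulated data. Gene symbols and exon overlaps came from GENCODE M21, and promoters from RefSeq on GRCm38.p6. Library depth is given with the results; a limit from 3 counts covers counting error only.

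The labels do not say whether the libraries came from separate animals, so p-values measure only the spread between these samples. This spread was estimated for each gene over all 7 groups at once, although glial libraries resembled each other less than P30 SGN libraries did. The genes described and the lists were chosen with earlier results of these data known. Genes named were the 12 largest differences each way (protein-coding, CPM over 10 in the higher group, groups not overlapping), any gene of the identity, in situ and myelin lists, and in other lists the 4 with the highest level in each group, the 3 largest calls each way, calls against the majority, and calls lost without glial replicate 1. Same-numbered libraries of P30 and P8 SGNs deviated together (r of 0.395, 0.177 and 0.162, all over 0.1). P30 replicate 2 with P8 replicate 3 (0.142) and P30 replicate 3 with P8 replicate 2 (0.112) did so too. Replicate 1 of either age with replicates 2 and 3 of the other had r between -0.26 and -0.22. Matching by number was thus not shown for replicates 2 and 3. Same-numbered libraries of P30 SGNs and glia did not deviate together (-0.049, -0.015 and -0.026). Alternatives were DESeq2 1.42.0, edgeR's quasi-likelihood test, other scalings, filters and thresholds, sample quality weights, a replicate block, the 6 libraries alone, no mitochondrial genes, and each library left out in turn. Results for some genes of these lists are not reported here; the counts and sums of the lists include them.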

Additional observations from a re-analysis of the deposited data

Results flagged for a closer look

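For some genes the difference from the same P8 glia was not equal at both neuronal ages, as tested by the direct comparison of P30 with P8 SGNs (limma-voom, 2-fold and adjusted p under 0.05). The values here are log2 fold changes of P30 over P8 SGNs.

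Genes higher at P30 were Snap25 (1.4), Syt1 (1.43), Celf4 (1.12), the glycolysis gene Pkm (1.34) and the elongase Elovl5 (1.35). The channel genes Kcnb2 (2.13), Scn4b (1.5), Hcn2 (1.38), Kcna2 (1.22) and Kcnab2 (1.17) were higher as well. Of these, Elovl5 and Kcna2 were not called between P30 SGNs and glia. Crtac1 (2.41), Entpd3 (2.1) and Nxph4 (3.91), all among the largest differences from glia, were also higher at P30. Scn2b (-1.21) was lower at P30.

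Genes of glia and their matrix were lower in P30 than in P8 SGNs. Among transcription factors these were Sox10 (-4.28), Foxd3 (-4.75), Egr2 (-3.17) and, from the dissociation and stress list, Egr3 (-4.53). Among myelin genes they were Pmp22 (-3.84), Mbp (-3.3), Prx (-3.88), Gjb1 (-5.47) and Gjc3 (-3.61). Gldn (-1.91), of the same list, was lower too, but it was not higher in glia: P30 SGNs and glia did not differ, and P8 SGNs lay above glia. Among matrix genes and their receptors they were Lama2 (-5.46), Lamc1 (-3.89), Col28a1 (-5.37), Col5a1 (-5.2), Emid1 (-6.68) and Dag1 (-1.39). The receptor Erbb3 (-3.62), the channel Kcnj10 (-3.46), the enzyme Glul (-1.54), the cotransporter Slc12a2 (-1.06) and the RNA-binding genes Qk (-2.05) and Celf2 (-1.17) were lower as well.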

How the results depend on the processing

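The count of genes called between P30 SGNs and P8 glia was 2800 with sample quality weights, 1120 of them higher in P30 SGNs, against 4296 and 2559. With the 6 libraries fitted alone it was 3200, with 1834 higher and 1366 lower. At 2-fold and an adjusted p under 0.05 it was 7152, with 4044 higher and 3108 lower. Leaving out 1 library at a time gave 3625 to 4389 calls, 1993 to 2644 higher and 1336 to 1745 lower. For P8 SGNs against glia these ranges were 2829 to 3622, 1544 to 2219 and 938 to 1403. For P30 against P8 SGNs they were 243 to 518, 145 to 266 and 98 to 252. There DESeq2 called 178 higher, scaling by library size 172 higher, and edgeR 245 in all, 60 higher and 185 lower; the cause was not tested.

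With the replicate number as a block, 4328 genes were called between P30 SGNs and glia (2545 higher, 1783 lower), 3435 between P8 SGNs and glia (2093 and 1342) and 626 between the ages (274 and 352). No count of calls moved by over 1.5 times under the block. Among genes named here it added the age calls of Gabrb2 (log2 fold change 2.67), Gata3 (-1.24), Axl (-4.21), Elovl1 (-2.52), Lum (-4.93), Nr4a1 (-3.67) and Vgll3 (-5.49), took none away, and ended the call of Slc17a8 between P30 SGNs and glia (-2.36, adjusted p = 0.013).

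The median of cholesterol and fatty acid synthesis genes (-0.06) was 0.01 without a filter on low counts, 0.03 without glial replicate 1, and 0.08 and 0.01 without P30 SGN replicates 2 and 3, with -0.57 to 0.08 over all libraries left out. Genes that did not pass the test also turned in sign: Ugt8a (0.02) to -0.05 with 6 libraries or DESeq2 size factors, -0.03 with CPM over 10, 0 in DESeq2, -0.26 with library size only. Library size only also turned Gldn (-0.08) and Hspa5 (-0.04). Leaving out 1 library gave -0.44 to 0.08 for Gria3, -0.21 to 0.04 for Kif5b, -0.18 to 0.27 for Ugt8a and -0.6 to 2.1 for Ocm. Of 144 named genes, 118 were called, and 37 of these lost the call in at least 1 of 16 alternatives.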
